A study of Mus musculus with 9 samples.

Results

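Synthesis of cholesterol and of fatty acids was followed through 32 genes in the ears of mice with and without interleukin 23 (IL-23). The genes comprise 18 enzymes of sterol synthesis, 6 genes that regulate the pathway or carry sterol, 6 enzymes of fatty acid synthesis and 2 lipogenic regulators. They were chosen by name with earlier results of these data known, matched to the tables by Ensembl identifier, and are 32 of the 54838 genes counted. Of these, 31 had enough counts to be tested. The exception was Mlxipl, which encodes the glucose-responsive factor ChREBP and had 61 counts over all 9 libraries.

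RNA was read near the 3' end of each transcript (3' tag RNA-Seq) in 9 ear libraries from C57BL/6 mice aged 10 weeks. Wild-type mice given minicircle (MC) DNA for green fluorescent protein (GFP) form the control group, wild-type mice given IL-23 MC DNA form the inflamed group, and Mdl-1-/- mice given IL-23 MC DNA form the mutant group, with 3 libraries each. All mice received 15 µg of DNA by hydrodynamic tail vein injection, which is known to deliver DNA mainly to the liver. Below, "with GFP" and "with IL-23" refer to wild-type ears, and "Mdl-1-/- ears" to mutant ears with IL-23. Clec5a encodes MDL-1, a receptor on the surface of myeloid cells. No Mdl-1-/- group with GFP was analysed here, so a genotype difference that precedes IL-23 cannot be told apart from one that needs it. The labels number the libraries 1 to 3 without naming animals, so the p-values reflect spread among libraries that may be technical.

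Total counts ran from 3776188 to 5605713 per library. Levels below are in CPM (counts scaled to a common library size), with library sizes adjusted as described under data processing. Against unadjusted totals, 3 counts, the limit that a count of 0 allows, correspond to 0.535 to 0.794 CPM. That range is therefore not on the scale of the CPM given below. Mitochondrial genes took 12.6% to 15.1% of counts with GFP, 8.69% to 8.99% with IL-23 and 11.4% to 12.9% in Mdl-1-/- ears. Clec5a had 2, 7 and 10 counts with GFP, 17, 21 and 11 with IL-23 and 10, 13 and 5 in Mdl-1-/- ears. The labels do not say which part of Clec5a is altered, so these 3' tags do not check the genotype. Basal keratinocyte markers were present in every library, at summed levels of 9131 to 11449, 10455 to 13112 and 7593 to 10241 CPM in the 3 groups. The cartilage markers of the ear summed to 34.9 to 71.5 CPM with GFP and 4.63 to 11.2 CPM with IL-23, with Matn1 at 0 in all libraries. In bulk tissue, fewer cells of a type and less RNA per cell cannot be told apart.

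Cholesterol is built from acetyl-CoA through mevalonate, isoprenoids, squalene and lanosterol, and the last steps change lanosterol to cholesterol. The pathway is switched by SREBP transcription factors, which stay in the endoplasmic reticulum bound to SCAP and INSIG while sterol is plentiful and travel to the Golgi for cleavage when it is scarce. SREBP-2 is best known for sterol genes and SREBP-1c for fatty acid genes. In skin, keratinocytes make cholesterol and fatty acids for the lipid layers of the barrier, while sebaceous glands and dermal fat make lipid on a large scale.

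SREBPs are known to act together with NF-Y and Sp1 at promoters, and 3 promoters are printed because their genes stand for the patterns described below. Hmgcs1 was lower in both IL-23 groups than with GFP, Mvd rose with IL-23 and was lower in Mdl-1-/- ears, and Sc5d rose most. RefSeq start sites on GRCm38.p6 were matched for 28 of the 32 genes, 38 sites in all. Each run holds the 250 bases before the start site, 5' to 3'. Capitals mark the sterol regulatory element consensus TCACNCCAC and the NF-Y box CCAAT, which reads ATTGG on the other strand. Hmgcs1 lies on the plus strand (chr13:119690101-119690350), and Mvd (chr8:122443423-122443672) and Sc5d (chr9:42264301-42264550) lie on the minus strand. By GENCODE M21 on GRCm38 the genes themselves span chr13:119690379-119708260, chr8:122433601-122443422 and chr9:42251595-42264256. Srebf1, the regulator with the largest changes, spans chr11:60199089-60222581 on the minus strand, and Scap chr9:110333288-110384950 on the plus strand.
Hmgcs1: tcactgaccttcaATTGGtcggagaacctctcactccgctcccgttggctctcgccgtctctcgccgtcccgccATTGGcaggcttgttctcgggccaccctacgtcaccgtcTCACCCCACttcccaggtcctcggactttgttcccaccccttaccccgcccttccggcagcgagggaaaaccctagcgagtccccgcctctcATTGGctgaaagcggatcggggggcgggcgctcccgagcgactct
Mvd: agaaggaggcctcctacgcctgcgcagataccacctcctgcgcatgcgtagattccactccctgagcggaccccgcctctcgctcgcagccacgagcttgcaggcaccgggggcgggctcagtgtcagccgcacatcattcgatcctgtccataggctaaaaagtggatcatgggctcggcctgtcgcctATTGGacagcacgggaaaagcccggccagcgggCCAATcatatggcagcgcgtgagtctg
Sc5d: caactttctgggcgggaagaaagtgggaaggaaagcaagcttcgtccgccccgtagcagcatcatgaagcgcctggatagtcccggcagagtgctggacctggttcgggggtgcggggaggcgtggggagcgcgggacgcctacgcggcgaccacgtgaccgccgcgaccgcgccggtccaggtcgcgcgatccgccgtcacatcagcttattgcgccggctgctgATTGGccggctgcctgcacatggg

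The 250 bases of Hmgcs1 hold TCACCCCAC with its first base at -137 from the start site, and NF-Y boxes on either side of it. Mvd and Sc5d hold NF-Y boxes but no match to TCACNCCAC in this window. In windows of 300 bases (250 before and 50 after the start site), searched on both strands, TCACNCCAC was found in 2 of 38 member windows (5.26%), those of Hmgcs1 and Mlxipl, against 1.24% of all 32851 windows. CCAAT was found in 26 member windows (68.4%, against 37.4% of all). The Sp1 box GGGCGG was found in 27 (71.1%, against 35.7%), and the E-box CACGTG in 7 (18.4%, against 7.15%). Matches of different motifs did not overlap. A gene can have several start sites, and these matches are descriptions of letters, not of binding.

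With IL-23, the pathway did not move in 1 direction. In wild-type ears 9 of the 31 tested genes rose and 13 fell against GFP, and 9 did not pass the test (edgeR quasi-likelihood test, Benjamini-Hochberg adjusted p under 0.05 over all 13807 genes tested). That is 71.0% called, against 44.7% of all genes tested (22.9% higher and 21.7% lower). The median log2 fold change of the members was 0.10, beside -0.04 for all genes tested. Under upper-quartile scaling, which moved the median of all genes by -0.15, the median of the members was -0.06 and that of the sterol enzymes -0.03, so the sign of both depends on the scaling. Under that scaling the share of all calls that were higher was 38.9% in place of 51.3%, and 8 members rose and 13 fell. The largest rise was in Sc5d, the lathosterol oxidase, 3.25-fold, and the largest fall in Srebf1, which encodes SREBP-1, 5.51-fold. Fatty acid enzymes fell or did not pass the test, and sterol enzymes split by step.

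**Figure D1:**
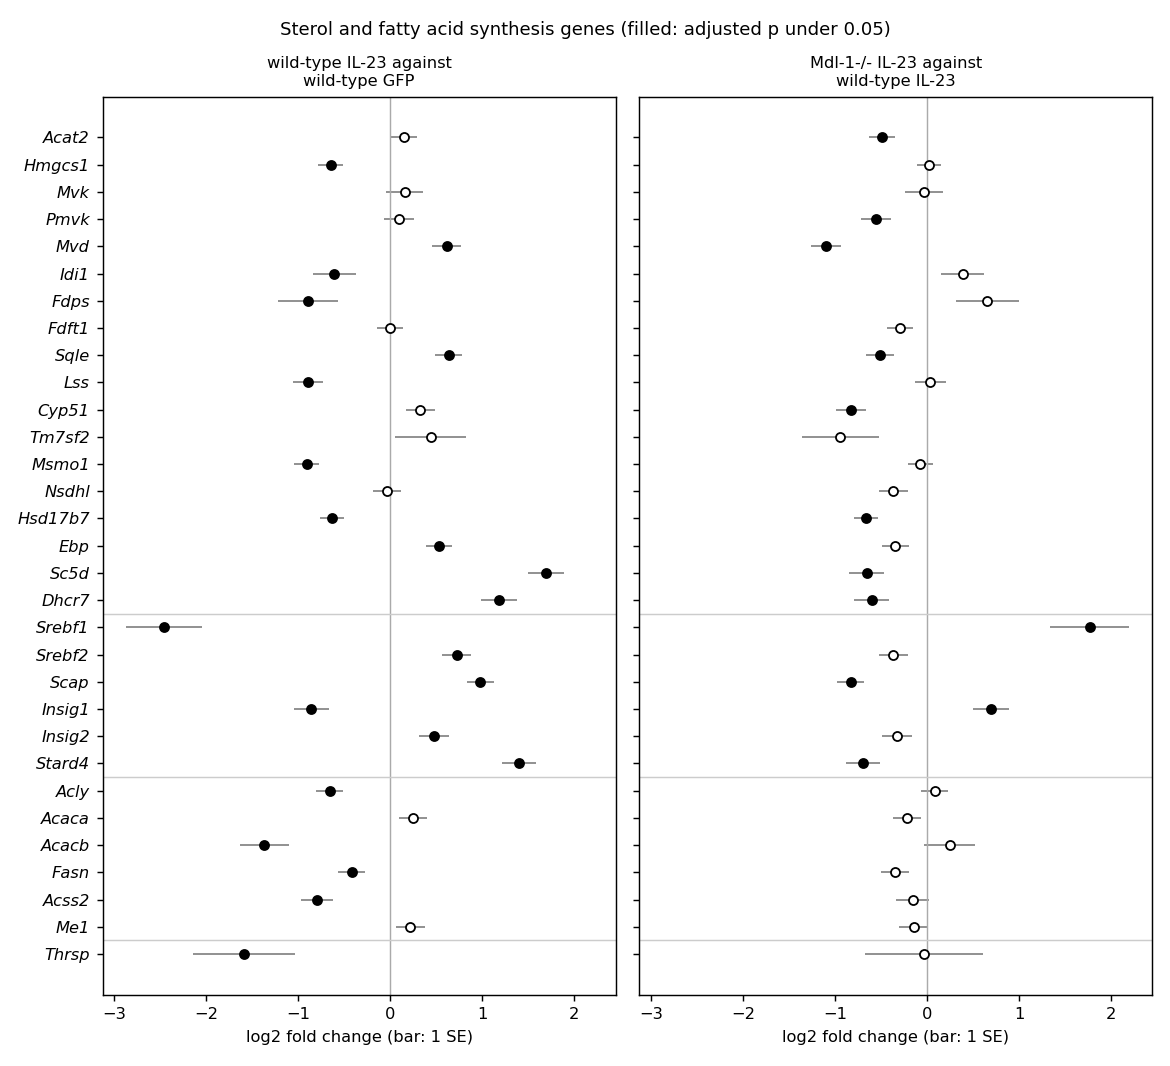
Log2 fold change of the 31 tested genes (x axis; bars are 1 standard error) in pathway order from top to bottom, for IL-23 against GFP in wild-type ears (left) and for Mdl-1-/- against wild-type ears under IL-23 (right). Filled points passed the test: 9 rose and 13 fell on the left, and 2 were higher and 10 lower on the right.

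Among the enzymes that make mevalonate and isoprenoids, Hmgcs1 fell and Mvd rose. Hmgcs1 stood at 1189.6, 1257 and 1398 CPM with GFP, 922, 795 and 737 CPM with IL-23 and 747, 902 and 842 CPM in Mdl-1-/- ears. Hmgcs1, which makes HMG-CoA, was higher in all 3 GFP libraries than in any IL-23 library of either genotype, and it fell 1.57-fold in wild-type ears (log2 fold change -0.65 with SE 0.13, adjusted p = 0.000992). Mvd stood at 91.4, 125 and 100.4 CPM with GFP, 137, 172 and 176 CPM with IL-23 and 72.0, 87.4 and 67.6 CPM in Mdl-1-/- ears. The 3 wild-type IL-23 libraries lay above all others for Mvd, the decarboxylase that closes the mevalonate branch, which rose 1.53-fold (log2 fold change 0.61 with SE 0.16, adjusted p = 0.00538). Acat2 stood at 178, 236 and 189 CPM with GFP, 235, 215 and 218 CPM with IL-23 and 157, 174 and 144 CPM in Mdl-1-/- ears. Pmvk stood at 47.9, 68.5 and 52.6 CPM with GFP, 54.3, 67.4 and 58.5 CPM with IL-23 and 38.0, 44.6 and 40.0 CPM in Mdl-1-/- ears. Acat2, the cytosolic thiolase of the first step, and Pmvk, the phosphomevalonate kinase, overlapped between GFP and IL-23 in wild-type ears and did not pass the test there (adjusted p = 0.411 and 0.658).

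Idi1 and Fdps, which handle the isoprenoid units, carry more doubt. Idi1 stood at 89.8, 41.7 and 78.6 CPM with GFP, 43.8, 40.5 and 54.2 CPM with IL-23 and 53.0, 61.5 and 65.9 CPM in Mdl-1-/- ears. Library 2 of the GFP group was low, within the range of the IL-23 libraries, and the call of a 1.52-fold fall (log2 fold change -0.61, adjusted p = 0.0477) was lost in 11 of 18 alternative analyses, among them without GFP library 1 (adjusted p = 0.208). Fdps had 50, 41 and 55 counts with GFP, 13, 25 and 15 with IL-23 and 25, 23 and 43 in Mdl-1-/- ears, and its call (log2 fold change -0.89, adjusted p = 0.036) was lost in 5 of 18, among them without IL-23 library 1 (adjusted p = 0.15). Both genes have near-identical copies elsewhere in the genome that took counts. Over the last 400 bases of the transcript, Gm3571 matches Fdps at 99.0% and had 851 counts against 290 for Fdps, and Gm13502 matches Idi1 without a mismatch over 284 bases and had 847 counts against 2572. Neither copy passed the test with IL-23 (log2 fold change 0.40 with adjusted p = 0.137, and 0.09 with adjusted p = 0.759), so the levels and changes of Fdps and Idi1 are uncertain.

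From squalene to the first sterols, neighbouring steps moved in opposite directions. Sqle stood at 199.95, 205 and 233 CPM with GFP, 304, 307 and 381 CPM with IL-23 and 191, 270.1 and 236 CPM in Mdl-1-/- ears. Sqle, the squalene epoxidase that is a known control point of the pathway, was higher in each wild-type IL-23 library than in any other library and rose 1.55-fold (log2 fold change 0.64 with SE 0.15, adjusted p = 0.00306). Lss stood at 70.8, 82.5 and 89.1 CPM with GFP, 42.4, 48.4 and 39.3 CPM with IL-23 and 35.6, 50.1 and 48.2 CPM in Mdl-1-/- ears. Lss, which folds squalene epoxide into lanosterol, was lower in all 6 IL-23 libraries than in any GFP library and fell 1.86-fold (log2 fold change -0.89 with SE 0.16, adjusted p = 0.000424). Cyp51 stood at 376, 436 and 407 CPM with GFP, 417, 544 and 568 CPM with IL-23 and 224, 324 and 312 CPM in Mdl-1-/- ears. Cyp51, the lanosterol demethylase, overlapped between GFP and IL-23 in wild-type ears (log2 fold change 0.33, adjusted p = 0.105).

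Msmo1 and Hsd17b7, which act in the removal of methyl groups from lanosterol, fell, and Ebp, Sc5d and Dhcr7, which act later, rose. Msmo1 stood at 838, 863 and 977 CPM with GFP, 471, 522 and 433 CPM with IL-23 and 443, 507 and 407 CPM in Mdl-1-/- ears. Hsd17b7 stood at 705, 781 and 712 CPM with GFP, 447, 499 and 474 CPM with IL-23 and 291, 342 and 267 CPM in Mdl-1-/- ears. Msmo1, the methyl sterol oxidase, and Hsd17b7, the sterol ketoreductase of the same complex, were lower in every IL-23 library than in any GFP library. They fell 1.88-fold (log2 fold change -0.91 with SE 0.13, adjusted p = 7.01e-05) and 1.55-fold (log2 fold change -0.63 with SE 0.13, adjusted p = 0.00106). Sc5d stood at 51.7, 64.3 and 59.9 CPM with GFP, 136, 179 and 257 CPM with IL-23 and 108, 128 and 126 CPM in Mdl-1-/- ears. Dhcr7 stood at 16.7, 21.7 and 21.96 CPM with GFP, 36.0, 43.3 and 59.2 CPM with IL-23 and 32.4, 27.4 and 30.7 CPM in Mdl-1-/- ears. Ebp stood at 61.6, 69.4 and 70.5 CPM with GFP, 92.1, 103 and 95.9 CPM with IL-23 and 66.4, 75.0 and 87.9 CPM in Mdl-1-/- ears. The wild-type IL-23 libraries lay above all GFP libraries for each of these 3 last-step genes. Sc5d, the sterol desaturase, rose 3.25-fold (log2 fold change 1.70 with SE 0.20, adjusted p = 9.86e-06), and Dhcr7, which reduces 7-dehydrocholesterol to cholesterol, rose 2.28-fold (log2 fold change 1.19 with SE 0.19, adjusted p = 0.000174). Ebp, the sterol isomerase, rose 1.44-fold (log2 fold change 0.53 with SE 0.14, adjusted p = 0.00683).

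The remaining sterol enzymes, Mvk, Fdft1, Tm7sf2 and Nsdhl, did not pass the test in any comparison, with log2 fold changes with IL-23 of 0.16, -0.01, 0.44 and -0.03. Fdft1 makes squalene, and its exons overlap those of Ctsb on the other strand, which had 5838 counts against 1977 for Fdft1. Tm7sf2, a sterol reductase with 163 counts in all, shares exons with Vps51 on the same strand. As the strand setting of the counting is not given in the sources used here, reads from such overlaps cannot be assigned with certainty. Cyp51 (with Akap9), Acss2 (with Gss) and Srebf1 (with Rai1) have smaller overlaps of the same kind. Acaca and Acat2 have near-identical copies with 52 and 17 counts.

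Summed over the 18 sterol enzymes, their share of all counts was 0.473% to 0.521% with GFP, 0.295% to 0.329% with IL-23 and 0.256% to 0.289% in Mdl-1-/- ears. The groups did not overlap, and the same order held without Hmgcs1 (0.333% to 0.360%, 0.235% to 0.257% and 0.182% to 0.205%). The sum without Hmgcs1 is still weighted towards abundant enzymes that fell, Msmo1 and Hsd17b7, with means of 893 and 732 CPM with GFP. The order of the sums therefore does not describe the 18 enzymes as a set. These shares are of unscaled library totals and so also move with the other genes in a library. Of the 18 enzymes, 5 rose and 6 fell with IL-23, and their median log2 fold change was 0.12, beside -0.04 for all genes tested. Over all genes tested, 22.9% were called higher and 21.7% lower.

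**Figure D2:**
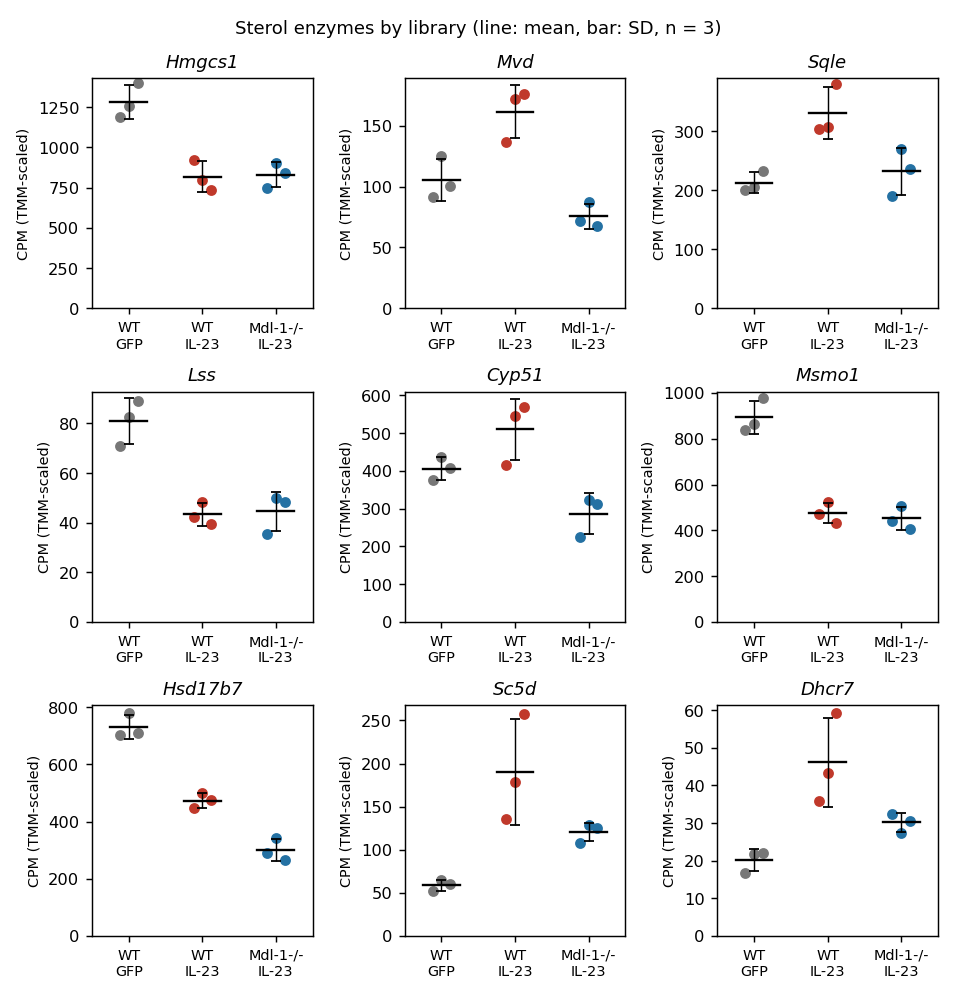
CPM of 9 sterol enzymes in each library (points), with the group mean (line) and SD (bar), n = 3 per group; each y axis starts at 0. Hmgcs1, Lss and Msmo1 are low in both IL-23 groups, Mvd, Sqle, Sc5d and Dhcr7 are highest with IL-23 in wild-type ears, and Hsd17b7 steps down from group to group.

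All 6 regulators passed the test with IL-23 in wild-type ears, 4 higher and 2 lower, against 44.7% of all genes tested. Srebf1 stood at 25.6, 9.18 and 27.2 CPM with GFP, 5.04, 3.07 and 2.98 CPM with IL-23 and 16.3, 10.1 and 11.98 CPM in Mdl-1-/- ears. The wild-type IL-23 libraries were below all others, and Srebf1 fell 5.51-fold (log2 fold change -2.46 with SE 0.41, adjusted p = 0.000391). GFP library 2 was low for Srebf1 as it was for Idi1, with 50 counts against 147 and 176 in the other GFP libraries. Tags at the 3' end do not separate the SREBP-1a and SREBP-1c forms. Srebf2 stood at 45.9, 48.3 and 36.4 CPM with GFP, 74.9, 69.6 and 70.8 CPM with IL-23 and 59.5, 62.2 and 45.3 CPM in Mdl-1-/- ears. Srebf2, which encodes SREBP-2, was higher in each wild-type IL-23 library than in any other library and rose 1.65-fold (log2 fold change 0.72 with SE 0.16, adjusted p = 0.00187). Scap stood at 81.6, 90.5 and 78.4 CPM with GFP, 139, 172 and 183 CPM with IL-23 and 79.8, 99.0 and 98.5 CPM in Mdl-1-/- ears. Scap, the escort of both SREBPs, rose 1.97-fold (log2 fold change 0.98 with SE 0.15, adjusted p = 8.55e-05), with the 3 wild-type IL-23 libraries again above all others.

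The INSIG genes moved in opposite directions. Insig1 stood at 21.2, 20.4 and 23.4 CPM with GFP, 13.5, 11.8 and 10.2 CPM with IL-23 and 21.02, 19.4 and 17.7 CPM in Mdl-1-/- ears. Insig1, an anchor of SCAP and itself a known SREBP target, was lower in all wild-type libraries with IL-23 than elsewhere and fell 1.81-fold (log2 fold change -0.86 with SE 0.19, adjusted p = 0.00189). Insig2 stood at 75.7, 69.2 and 79.7 CPM with GFP, 81.1, 103 and 129.9 CPM with IL-23 and 85.2, 80.3 and 83.6 CPM in Mdl-1-/- ears. Insig2, the other anchor, was above all GFP libraries in both IL-23 groups and rose 1.39-fold in wild-type ears (log2 fold change 0.48, adjusted p = 0.0231). That call was lost under upper-quartile scaling (adjusted p = 0.104), without IL-23 library 2 (adjusted p = 0.0537) and without IL-23 library 3 (adjusted p = 0.126). Stard4 stood at 37.9, 46.6 and 51.2 CPM with GFP, 89.2, 114 and 157 CPM with IL-23 and 70.002, 69.99 and 81.0 CPM in Mdl-1-/- ears. Stard4, a soluble sterol carrier and known SREBP-2 target, was above all GFP libraries in both IL-23 groups and rose 2.64-fold in wild-type ears (log2 fold change 1.40 with SE 0.19, adjusted p = 3.37e-05).

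**Figure D3:**
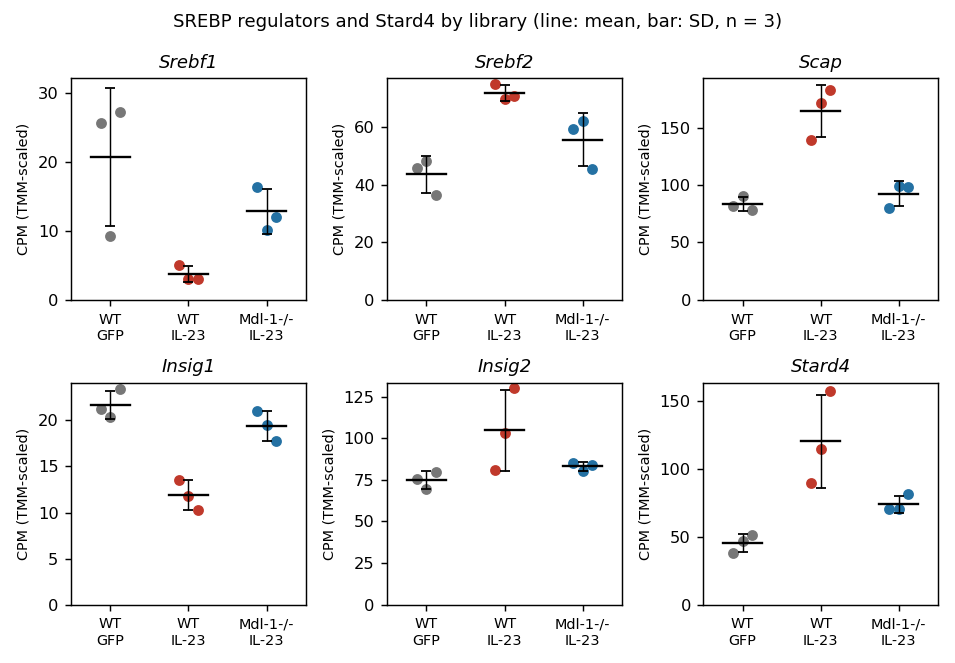
CPM of the 5 SREBP regulators and of Stard4 in each library (points), with the group mean (line) and SD (bar), n = 3 per group; each y axis starts at 0. Srebf1 and Insig1 are lowest with IL-23 in wild-type ears, and Srebf2, Scap and Stard4 are highest there.

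Of the 6 fatty acid synthesis enzymes, 4 were called lower with IL-23 and 0 higher, against 21.7% lower and 22.9% higher of all genes tested. Acacb stood at 31.8, 38.4 and 32.02 CPM with GFP, 15.4, 16.9 and 6.28 CPM with IL-23 and 15.4, 18.98 and 12.5 CPM in Mdl-1-/- ears. Acacb, the acetyl-CoA carboxylase of the mitochondrial surface that restrains fat oxidation, was lower in all 6 IL-23 libraries than in any GFP library and fell 2.58-fold (log2 fold change -1.37 with SE 0.26, adjusted p = 0.00068). Acly stood at 94.5, 97.5 and 93.1 CPM with GFP, 71.5, 58.0 and 50.9 CPM with IL-23 and 68.2, 64.5 and 58.9 CPM in Mdl-1-/- ears. Acss2 stood at 58.8, 50.3 and 60.8 CPM with GFP, 32.5, 35.0 and 29.8 CPM with IL-23 and 22.8, 35.9 and 28.8 CPM in Mdl-1-/- ears. Acly and Acss2, which make cytosolic acetyl-CoA from citrate and acetate, showed the same separation and fell 1.58-fold (log2 fold change -0.66 with SE 0.15, adjusted p = 0.00205) and 1.74-fold (log2 fold change -0.80 with SE 0.17, adjusted p = 0.00164). Fasn stood at 194, 262 and 219.6 CPM with GFP, 189, 161 and 155 CPM with IL-23 and 129, 147 and 120.3 CPM in Mdl-1-/- ears. Fasn, the fatty acid synthase, was lower in every IL-23 library than in any GFP library, but the closest values were 189 and 194 CPM. It fell 1.34-fold (log2 fold change -0.42, adjusted p = 0.0297), and the call was lost without GFP library 2 or 3 or without IL-23 library 2 or 3, with the highest adjusted p at 0.147.

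Acaca and Me1 did not follow. Acaca, the cytosolic acetyl-CoA carboxylase of lipogenesis, had a log2 fold change of 0.25 (95% interval -0.07 to 0.56, adjusted p = 0.195), and Me1, the malic enzyme that supplies NADPH, of 0.22 (-0.11 to 0.55, adjusted p = 0.26). The groups overlapped for both. Thrsp, a lipogenic regulator of fat and liver, had 25, 34 and 84 counts with GFP, 8, 20 and 4 with IL-23 and 8, 5 and 20 in Mdl-1-/- ears, and it fell 3.01-fold with IL-23 (log2 fold change -1.59, adjusted p = 0.0336). IL-23 library 2 lay at the level of the lowest GFP library. Without IL-23 library 2 the log2 fold change was -2.28, and without GFP library 3, which held the most counts, the call was lost (adjusted p = 0.174). Mlxipl had 8, 7 and 15 counts with GFP, 7, 8 and 2 with IL-23 and 2, 4 and 8 in Mdl-1-/- ears, too few for a test. The 6 enzymes took 0.0726% to 0.0823% of all counts with GFP, 0.0485% to 0.0536% with IL-23 and 0.0493% to 0.0526% in Mdl-1-/- ears. These shares are of unscaled library totals, not on the scale of the CPM above, and so also move with the other genes in a library. The size of their difference between groups is therefore not that of the enzymes alone. The median log2 fold change of the 6 enzymes with IL-23 was -0.54, beside -0.04 for all genes tested.

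**Figure D4:**
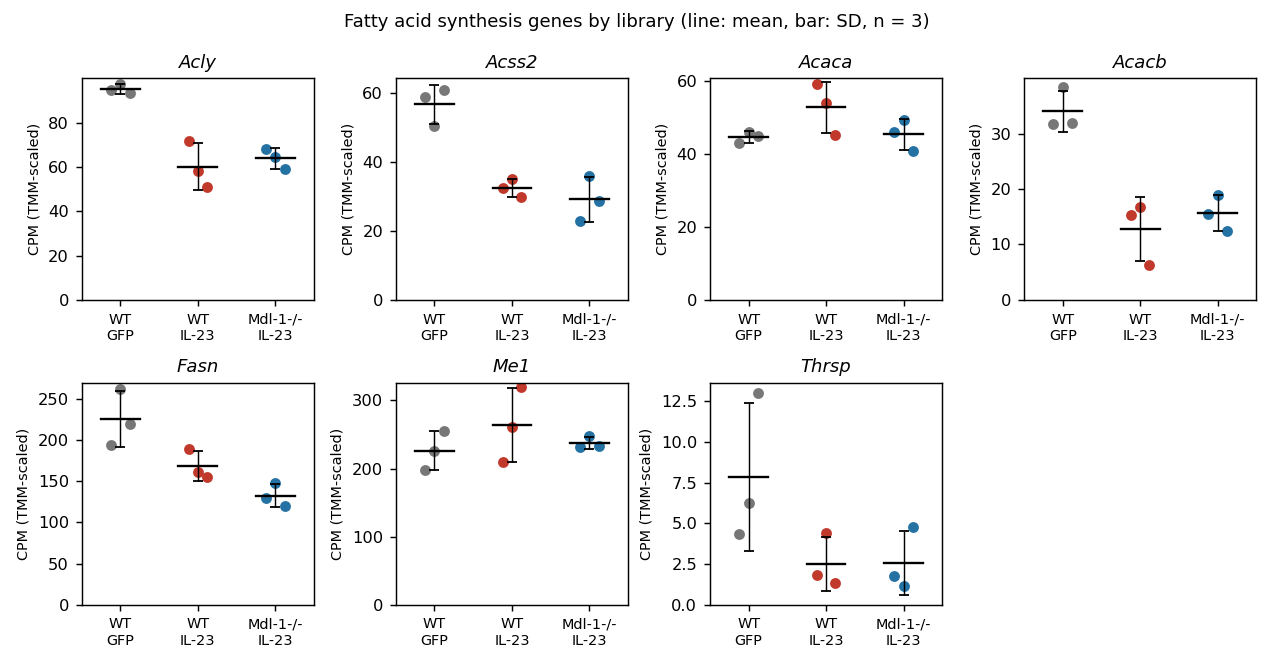
CPM of 6 fatty acid synthesis enzymes and Thrsp in each library (points), with the group mean (line) and SD (bar), n = 3 per group; each y axis starts at 0. Acly, Acss2, Acacb and Fasn are highest with GFP, and Acaca and Me1 overlap between the groups.

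Adipocyte and sebaceous gland markers mostly fell with IL-23 in wild-type ears. For the counts of this paragraph, 21.7% of all genes tested were called lower with IL-23 and 22.9% higher. Of 9 tested adipocyte markers 8 fell with IL-23 and 0 rose, and the summed level of all 10 was 326 to 655 CPM with GFP, 111 to 155 CPM with IL-23 and 104 to 161 CPM in Mdl-1-/- ears. Of 9 tested sebaceous gland markers 6 fell and 1 rose, and the sum of all 10 was 4334 to 5320.1 CPM with GFP, 1678 to 2593 CPM with IL-23 and 2063 to 2804 CPM in Mdl-1-/- ears. Proliferation markers rose with IL-23 (4 of 5, summed 445 to 560.1 CPM with GFP and 966 to 1181 CPM with IL-23), and so did stress keratinocyte markers (6 of 6, 170.5 to 317 CPM and 12395 to 23776 CPM). Neutrophil markers rose too (5 of 5 tested, 162 to 270.5 CPM and 28115 to 60069.7 CPM). That sum is almost all S100a8 (28035, 38663 and 59962 CPM with IL-23), which inflamed keratinocytes are also known to express. Cxcr2, a chemokine receptor of neutrophils, stood at 2.96, 2.57 and 2.78 CPM with GFP and 35.1, 33.7 and 42.0 CPM with IL-23. Of the other lists, 5 of 6 differentiating keratinocyte markers rose, 1 of 6 basal keratinocyte markers rose and 2 fell, 1 of 4 macrophage markers rose, 1 of 5 skeletal muscle markers fell, 3 of 3 cartilage markers fell, and 1 of 4 Schwann cell markers rose and 3 fell. Matn1 of the cartilage list was at 0 in every library, and no other marker was at 0 in all libraries of a group. Elovl3, Scd1 and Soat1 of the sebaceous list also stand in the lists of neighbouring genes counted next. The part of these cells, or of the lower mitochondrial share, in the changes of the synthesis genes was not tested.

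**Figure D5:**
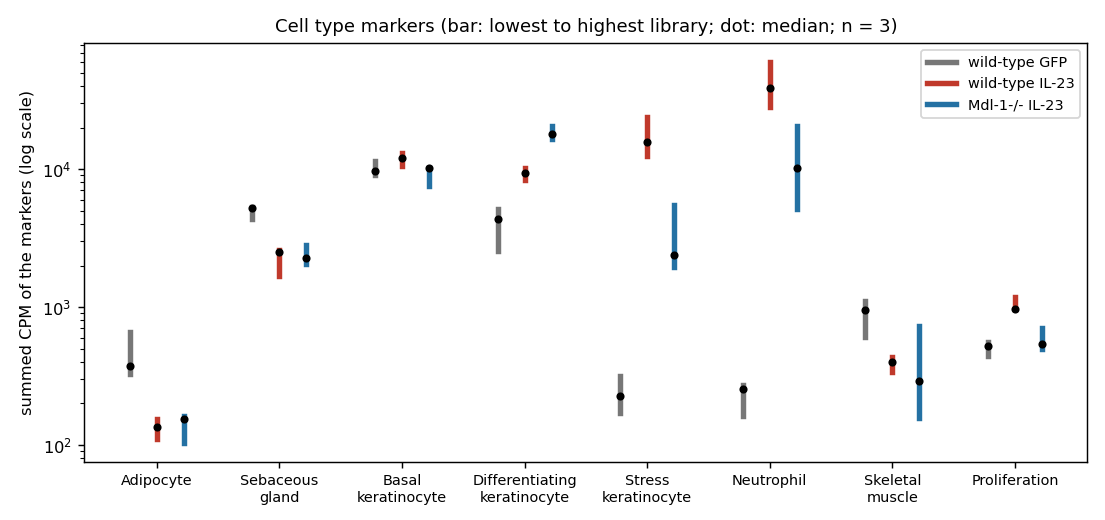
Summed CPM of the marker lists (y axis, log scale) in the 3 groups; bars run from the lowest to the highest of 3 libraries and dots mark the median. Adipocyte and sebaceous sums are lower in both IL-23 groups than with GFP, while proliferation, stress keratinocyte and neutrophil sums are highest with IL-23 in wild-type ears.

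Genes next to the pathway were counted from lists chosen by name, beside 22.9% of all genes tested called higher and 21.7% lower. Of 23 tested genes for other sterol handling, 1 rose and 10 fell with IL-23 (median log2 fold change -0.42, beside -0.04 for all genes tested). The riser was Scarb1, the receptor that takes up cholesterol ester from lipoproteins (log2 fold change 1.05 with SE 0.21, adjusted p = 0.00102). Mylip, the ligase that degrades the LDL receptor, was among those that fell (log2 fold change -2.06 with SE 0.28, adjusted p = 5.05e-05). Of 25 tested genes for other fatty acid synthesis and use, 3 rose and 13 fell (median -0.64). Elovl1, an elongase of very long chains, rose (log2 fold change 2.04 with SE 0.23, adjusted p = 1.58e-05), and Acadl, a mitochondrial acyl-CoA dehydrogenase, rose less (log2 fold change 0.95 with SE 0.24, adjusted p = 0.00739). Ppara, a nuclear receptor for fat oxidation, fell (log2 fold change -1.92 with SE 0.23, adjusted p = 1.02e-05), as did Elovl5, an elongase of polyunsaturated chains (log2 fold change -1.78 with SE 0.14, adjusted p = 3.41e-07).

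Loss of MDL-1 was compared under IL-23, and the members were mostly lower or not called. In Mdl-1-/- ears 10 of the 31 tested genes were lower and 2 higher than in wild-type ears with IL-23, which is 38.7% called against 17.7% of all genes tested (7.58% higher and 10.1% lower). The median log2 fold change was -0.33, beside 0.00 for all genes tested. Of all calls 42.9% were higher, and 53.2% under upper-quartile scaling. Of the 18 sterol enzymes 8 were lower and 0 higher (median -0.43), of the 6 regulators 2 were lower and 2 higher, and of the 6 fatty acid enzymes 0 were called. Because this comparison shares the wild-type IL-23 libraries with the one above, a library that is high in that group pushes the 2 comparisons in opposite directions, and opposite signs are not independent evidence.

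The sterol enzymes called lower spanned the pathway. Mvd showed the largest difference, 2.14-fold lower in Mdl-1-/- ears (log2 fold change -1.10 with SE 0.16, adjusted p = 0.00109), and its 3 mutant libraries were also below all GFP libraries. Cyp51 was 1.78-fold lower (log2 fold change -0.83 with SE 0.16, adjusted p = 0.00379) and Hsd17b7 1.58-fold lower (log2 fold change -0.66 with SE 0.13, adjusted p = 0.00423), again with every mutant library below every other library. Sc5d was 1.58-fold lower (log2 fold change -0.66 with SE 0.19, adjusted p = 0.0274) and Dhcr7 1.52-fold lower (log2 fold change -0.60 with SE 0.19, adjusted p = 0.0411). For these last-step genes the mutant libraries lay between the wild-type groups without overlap. Sqle lay 1.42-fold lower (log2 fold change -0.51, adjusted p = 0.0301), with mutant libraries that overlapped the GFP libraries. Pmvk (log2 fold change -0.56, adjusted p = 0.0302) and Acat2 (log2 fold change -0.49, adjusted p = 0.0269) were lowest in the mutant libraries, without overlap with either wild-type group. By contrast, Hmgcs1 (0.02, 95% interval -0.26 to 0.30), Lss (0.04, -0.32 to 0.39) and Msmo1 (-0.07, -0.35 to 0.21), which fell with IL-23, did not pass the test between genotypes (log2 fold changes), while Hsd17b7, which also fell with IL-23, did.

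Among the regulators, Scap was 1.78-fold lower in Mdl-1-/- ears (log2 fold change -0.83 with SE 0.15, adjusted p = 0.00253) and Stard4 1.62-fold lower (log2 fold change -0.70 with SE 0.19, adjusted p = 0.0182), while Srebf1 was 3.40-fold higher (log2 fold change 1.77 with SE 0.43, adjusted p = 0.0153) and Insig1 1.62-fold higher (log2 fold change 0.70 with SE 0.19, adjusted p = 0.0227). For Scap, Srebf1 and Insig1 the mutant libraries overlapped the GFP libraries and were separate from the wild-type IL-23 libraries. Srebf2 (log2 fold change -0.37, adjusted p = 0.122) and Insig2 (log2 fold change -0.33, adjusted p = 0.164) did not pass the test, although each mutant library of Srebf2 was below each wild-type IL-23 library. The fatty acid enzymes had log2 differences between genotypes from -0.35 for Fasn (95% interval -0.66 to -0.03) to 0.25 for Acacb (-0.34 to 0.84), and the interval of Thrsp, -1.42 to 1.35, was wider still. A missed threshold with such intervals does not show equal levels.

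Single libraries decided many of these calls. When library 2 or library 3 of wild-type ears with IL-23, or Mdl-1-/- library 1, was left out, 4 members were lower and 0 higher. When Mdl-1-/- library 3 was left out, 5 were lower. Over all genes the calls went down as well, from 2439 to 1128, 1300, 1166 and 1363. Mvd, Cyp51, Hsd17b7 and Scap kept their calls in all 18 alternative analyses. The call of Srebf1 was lost in the first 3 of these cases and with limma voom (highest adjusted p = 0.0725), and that of Dhcr7 in 9 of 18. Proliferation markers were lower in Mdl-1-/- ears too (4 of 5, summed 498 to 706 CPM against 966 to 1181 CPM), as were stress keratinocyte markers (6 of 6, 1944 to 5482 CPM against 12395 to 23776 CPM). Beside these counts, 10.1% of all genes tested were called lower and 7.58% higher. Of 5 tested neutrophil markers 2 were lower, Retnlg and Csf3r, and the 5 had log2 fold changes from -2.23 to -0.28 (median -1.82). Cxcr2 was not called, and its log2 fold changes against GFP were 3.72 in wild-type ears with IL-23 and 3.44 in Mdl-1-/- ears. The neutrophil markers summed to 5122 to 20639.9 CPM against 28115 to 60069.7 CPM, again mostly S100a8, which was not called. Of 9 adipocyte markers 0 were called and of 9 sebaceous markers 1 was higher. Of the basal keratinocyte, differentiating keratinocyte and Schwann cell lists 1 marker each was higher and 1 lower, 1 skeletal muscle marker was higher, and 0 macrophage or cartilage markers were called. The part of these cells in the differences was not tested.

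The neighbouring genes were counted in the same way, beside 7.58% of all genes tested called higher and 10.1% lower. Of the 23 other sterol handling genes 5 were higher and 1 lower in Mdl-1-/- ears (median 0.12), with Mylip (log2 fold change 1.54 with SE 0.28, adjusted p = 0.00344) among the higher genes and Scarb1 lower (log2 fold change -0.99 with SE 0.22, adjusted p = 0.00725). Of the 25 other fatty acid genes 3 were higher and 0 lower (median 0.01). They included Acadm, a medium-chain acyl-CoA dehydrogenase (log2 fold change 1.07 with SE 0.17, adjusted p = 0.00157), and Elovl6, which elongates palmitate (log2 fold change 0.97 with SE 0.28, adjusted p = 0.0374).

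Against wild-type ears with GFP, Mdl-1-/- ears with IL-23 had 2 members higher and 10 lower, 38.7% of those tested against 17.1% of all genes (10.2% higher and 6.93% lower). The median log2 fold change was -0.34, beside -0.02, and 59.4% of all calls were higher, against 43.7% under upper-quartile scaling. Hsd17b7 was 2.44-fold lower (log2 fold change -1.29 with SE 0.13, adjusted p = 1.34e-05), and it was the only member called lower in all 3 comparisons. Msmo1 (log2 fold change -0.98, adjusted p = 0.000143), Lss (log2 fold change -0.86, adjusted p = 0.00204) and Hmgcs1 (log2 fold change -0.63, adjusted p = 0.00425) were lower as well. Sc5d (log2 fold change 1.04, adjusted p = 0.00192) and Stard4 (log2 fold change 0.70, adjusted p = 0.0173) were the 2 genes called higher, and Stard4 lost its call without GFP library 1 or without Mdl-1-/- library 3. Of the fatty acid enzymes, Acacb (log2 fold change -1.12, adjusted p = 0.00742), Acss2 (log2 fold change -0.96, adjusted p = 0.00153), Fasn (log2 fold change -0.77, adjusted p = 0.00229) and Acly (log2 fold change -0.57, adjusted p = 0.0133) were lower, the last losing its call in 3 of 18 alternatives. Mvd (adjusted p = 0.04996) and Cyp51 (adjusted p = 0.0394) were called lower too, but lost the call in 13 and 8 of the 18. None of Srebf1, Srebf2, Scap, Insig1 and Insig2 passed the test, with log2 fold changes of -0.70, 0.36, 0.15, -0.16 and 0.15. This comparison shares libraries with both others, and genotype and injected DNA differ together in it.

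For the lists in this comparison, the shares of all genes tested were 10.2% called higher and 6.93% lower. Of the other sterol handling genes 0 were higher and 5 lower in Mdl-1-/- ears than with GFP, among the lower Abca1, the cholesterol efflux pump (log2 fold change -1.29 with SE 0.18, adjusted p = 0.0002). Of the other fatty acid genes 1 was higher, Elovl1 (log2 fold change 1.45 with SE 0.23, adjusted p = 0.00084), and 9 were lower, led by Ppara (log2 fold change -1.68 with SE 0.22, adjusted p = 0.000105) and Elovl5 (log2 fold change -1.66 with SE 0.14, adjusted p = 3.14e-06). Adipocyte markers were lower in 7 of 9 and sebaceous markers in 6 of 9. Stress keratinocyte markers were higher in 6 of 6 (median log2 fold change 5.24), differentiating keratinocyte markers in 4 of 6 and neutrophil markers in 2 of 5, S100a8 and Cxcr2. Cartilage markers were lower in 3 of 3, Schwann cell markers in 3 of 4 and basal keratinocyte markers in 1 of 6, and 0 proliferation, macrophage or skeletal muscle markers were called. The part of these cells in the changes of the members was not tested.

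Set side by side, the 3 groups gave several orders. Fitted values of Mdl-1-/- ears lay between those of the wild-type groups for 19 of 31 members (61.3%), against 56.9% of all genes tested, and they lay beyond the wild-type IL-23 value for 7 and beyond the GFP value for 5. Of all 13807 genes tested, 2884 lay beyond the wild-type IL-23 value and 3066 beyond the GFP value, so neither member count is read as particular to the pathway. Sc5d and Stard4 were higher with IL-23, lower in Mdl-1-/- than in wild-type ears and still above GFP, each step called. For both, the call between genotypes was lost in 4 of 18 alternatives (highest adjusted p = 0.151 for Sc5d and 0.0983 for Stard4). Mvd was highest with IL-23 in wild-type ears and lowest in Mdl-1-/- ears. Scap, Sqle and Dhcr7 rose with IL-23 and were lower in Mdl-1-/- ears, with no call against GFP, and Srebf1 and Insig1 showed the opposite order. Hmgcs1, Lss, Msmo1, Acly, Acacb, Fasn and Acss2 were called lower in both IL-23 groups than in wild-type ears with GFP. They had no call between the IL-23 groups. Without Mdl-1-/- ears given GFP, a fall with IL-23 in the mutant was not measured. Cyp51 was called lower in Mdl-1-/- ears than in either wild-type group. By mean CPM, Mdl-1-/- ears were the highest group for 0 of 32 members and the lowest for 12. The matching shares over all genes were not computed, so these counts are description only.

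In the authors' deposited tables of edgeR results, 18 members had a false discovery rate under 0.05 for IL-23 against GFP, and all 18 were called here with the same sign. The authors' deposited table for the genotype comparison lists its log2 fold changes as wild type minus mutant, which was turned round here. It has 5 members under 0.05, Cyp51, Hsd17b7, Mvd, Scap and Srebf1, while Acat2, Dhcr7, Insig1, Pmvk, Sc5d, Sqle and Stard4 were called only here. Between Mdl-1-/- ears and GFP the authors' deposited table has 11, of which 10 were also called here. Thrsp was called only there, and Cyp51 and Mvd only here.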

How the data were processed

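Gene counts of 9 ear libraries, 3 a group, were analysed. The tools named per the submitters' processing notes are STAR 2.7.0a, featureCounts and edgeR, and the build is written GRCh38.p6, a human name, although the identifiers are of mouse. The authors deposited raw counts per Ensembl gene, not normalised, and edgeR tables with log2 fold changes, log2 CPM and p-values, used here for overlap only. The strand setting and the handling of reads with several matches were not given in the sources used here. Symbols came from GENCODE M21 by identifier, and promoters from RefSeq on GRCm38.p6.

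Each library stands in 2 count tables with identical values (0 differed), so the tables were joined. edgeR 4.0.16 in R 4.3.3 tested 13807 genes kept by filterByExpr (minimum count 10, minimum total 15). Libraries were scaled by the trimmed mean of M-values (TMM) and 3 group means were fitted in 1 model; the quasi-likelihood fit was robust with 6 residual degrees of freedom, and calls had Benjamini-Hochberg adjusted p under 0.05. Standard errors came from the F statistic, 95% intervals from its degrees of freedom, and CPM are TMM-scaled. Copies were sought by aligning the last 400 bases of each member to all transcripts (identity of 95% over 100 bases). Tested on simulated counts, the procedure recovered 55%, 61% and 60% of 2-fold and 91%, 94% and 92% of 4-fold changes in the 3 comparisons in the order reported, with 5.19%, 4.91% and 7.32% of the calls false, in simulations of 13807 genes. Each simulation changed a far smaller share of genes than was called in the data, so these rates need not hold for the real comparisons.

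The members, role groups and marker lists were chosen with earlier results of these data known. Every member was accounted for, those called in any comparison with values in each library, and other genes were named only if called and among the 2 largest changes per direction in a list; 1 such gene is not reported here. Alternatives were upper-quartile and DESeq2 size-factor scaling, no filter and a minimum count of 30, DESeq2 1.42.0, voom of limma 3.58.1, non-robust dispersions, only the 2 groups compared, a replicate block, and each library left out.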

Additional observations from a re-analysis of the deposited data

How the results depend on the processing

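Direction never turned for a called member under any of the 18 alternatives. With IL-23 in wild-type ears, leaving out 1 library gave 8 to 10 genes higher and 9 to 12 lower. For Mdl-1-/- against wild-type ears under IL-23 the range was 0 to 2 higher and 4 to 10 lower, and for Mdl-1-/- ears against GFP 1 to 3 higher and 7 to 10 lower. With limma voom, 1 member was higher between genotypes under IL-23 in place of 2. Upper-quartile scaling shifted the median log2 fold change of all genes by -0.15, 0.06 and -0.10 in the 3 comparisons and the share of calls that were higher from 51.3% to 38.9%, 42.9% to 53.2% and 59.4% to 43.7%. Members called higher and lower were then 8 and 13, 2 and 9, and 2 and 14.

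Deviations from the group means correlated at -0.0863 to 0.230 between libraries with the same number, and not every library correlated best with its own number. The highest values, 0.230 and 0.182, were between libraries of the same number, and the next was 0.175. Deviations from a mean of 3 libraries are tied to each other, so these values cannot decide whether the numbers pair the libraries. With a replicate block, 9 and 13, 2 and 10, and 3 and 12 members were higher and lower. Over all genes the block raised the calls from 6169 to 6257, from 2439 to 2800 and from 2359 to 2682 in the 3 comparisons. Counts near the test's limit, such as those of Thrsp, Fdps and Tm7sf2, restrict what 3 libraries a group can show.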

Other observations

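Ratios of counts within a library do not depend on scaling, and 5 were computed after the values were seen, so they are given without a test. Sc5d to Msmo1, a late against an earlier step of the post-lanosterol pathway, was 0.0617, 0.0744 and 0.0613 with GFP, 0.288, 0.343 and 0.594 with IL-23 and 0.245, 0.253 and 0.309 in Mdl-1-/- ears. All 6 IL-23 libraries were above the GFP libraries, and the IL-23 groups of both genotypes overlapped. Dhcr7 to Hmgcs1, a last against an early step, was 0.0140, 0.0172 and 0.0157 with GFP, 0.0390, 0.0546 and 0.0803 with IL-23 and 0.0434, 0.0304 and 0.0364 in Mdl-1-/- ears, with the same overlap between genotypes. Sqle to Lss, neighbouring steps, was 2.82, 2.49 and 2.62 with GFP, 7.17, 6.35 and 9.68 with IL-23 and 5.37, 5.39 and 4.91 in Mdl-1-/- ears, with the 3 groups apart.

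Insig2 to Insig1 was 3.57, 3.40 and 3.41 with GFP, 6, 8.70 and 12.7 with IL-23 and 4.05, 4.13 and 4.72 in Mdl-1-/- ears, again with the groups apart. Srebf2 to Srebf1 was 1.80, 5.26 and 1.34 with GFP, 14.9, 22.7 and 23.8 with IL-23 and 3.64, 6.18 and 3.78 in Mdl-1-/- ears. GFP library 2 stood among the Mdl-1-/- values for that ratio, and the wild-type IL-23 libraries were above all others.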
